A study of Mus musculus with 4 samples.

Results

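The genes described here are the metalloproteinases of the matrix metalloproteinase (MMP), ADAM and ADAMTS families and the tissue inhibitors of metalloproteinases (TIMPs), as transcribed in mouse peritoneal mesothelium. They were chosen by gene symbol alone: Mmp followed by a number, Timp1 to Timp4, Adam followed by a number, and Adamts followed by a number. The rule found 79 of the 48425 genes in the table, which were 23 Mmp, 4 Timp, 33 Adam and 19 Adamts genes. The 4 libraries come from 4 C57BL/6 mice, each 10 weeks old and labelled WT, for wild type. Their mesothelial cells were freshly isolated, and the study has no treatment and no other group. Cells lining the peritoneal cavity were loosened with trypsin and sorted as CD45-, Pdpn+ and Gpm6a+, and the RNA was freed of ribosomal RNA before sequencing. The sorted cells are a pool from the whole cavity of each animal, and the labels name no sex. The stated purpose was to record mesothelial expression at homeostasis.

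All 3 protease families use a zinc ion to cut peptide bonds. MMPs cut collagens and other extracellular proteins, ADAMs are mostly membrane proteins that release the outer domains of their neighbours, and ADAMTS enzymes are secreted and cut proteoglycans and procollagens. TIMPs block MMPs by closing over the active site, and Timp3 also blocks several ADAM and ADAMTS enzymes. Mesothelium lies on a thin layer of collagen-rich tissue, and its proteases and inhibitors are studied in peritoneal repair, adhesion and fibrosis.

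The libraries held 4090224 to 4569578 estimated counts. A level is given in counts-per-million (CPM), the value of a gene over the sum of its column, and a gene at 0 in all 4 libraries can lie as high as 0.171 CPM, which is 3 counts over the group. All 14 mesothelial markers lay above 1 CPM, with a summed level of 17078 to 19127 CPM, and Upk3b and Msln had 4135 ± 236 and 2257 ± 393 CPM. The 14 include Pdpn (1094 CPM) and Gpm6a (2206 CPM), on which the cells were sorted, so these genes are no separate sign of identity. Of 10 fibroblast markers 9 lay above 1 CPM, with a sum of 14828 to 22467 CPM that was mostly the proteoglycan gene Dcn. Of 10 macrophage markers 4 lay above 1 CPM, Cd14 (52.5 CPM), Csf1r (34.5), Mertk (15.2) and Cd68 (12.5), with Itgam and Timd4 at 0 and a sum of 104 to 130.0 CPM. Of 10 neutrophil markers none lay above 1 CPM, also by DESeq2 or at an unadjusted p under 0.05, 6 were at 0, and the sum was 1.08 to 2.44 CPM. None of 7 leukocyte markers lay above 1 CPM by edgeR. Their sum was 9.90 CPM in animal 1, with Cd79a at 5.66 and Ptprc at 3.05 CPM, and 0.857 to 1.58 CPM in the others. By edgeR 2 of 6 endothelial markers lay above 1 CPM, Kdr (49.2 CPM) and Tek (2.64), with Cdh5 and Emcn at 0. In such sorted pools, fewer cells of a type and less RNA per cell cannot be told apart, and the part of any admixed cell in the levels below was not tested.

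The families were transcribed unevenly. Of the 79 genes, 27 lay above 1 CPM, which is 34.2%, beside 24.7% of all genes and 50.9% of protein-coding genes in the table. The test was edgeR's quasi-likelihood test of the level, one-sided, with Benjamini-Hochberg adjustment over all 48425 genes and a threshold of 0.05. The genes above 1 CPM were 7 of 23 Mmp, 3 of 4 Timp, 8 of 33 Adam and 9 of 19 Adamts genes. A further 24 genes had reads but did not pass, and 28 were at 0 in every animal, which is 35.4%, beside 52.6% of all genes and 29.3% of protein-coding genes. Those at 0 were 9 Mmp, 17 Adam and 2 Adamts genes. The median of the mean levels was 0.372 CPM over the 79 genes, beside 0 CPM over the whole table and 2.88 CPM over protein-coding genes. Together the 79 genes took 0.165%, 0.195%, 0.164% and 0.177% of all counts in animals 1 to 4.

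**Figure D1:**
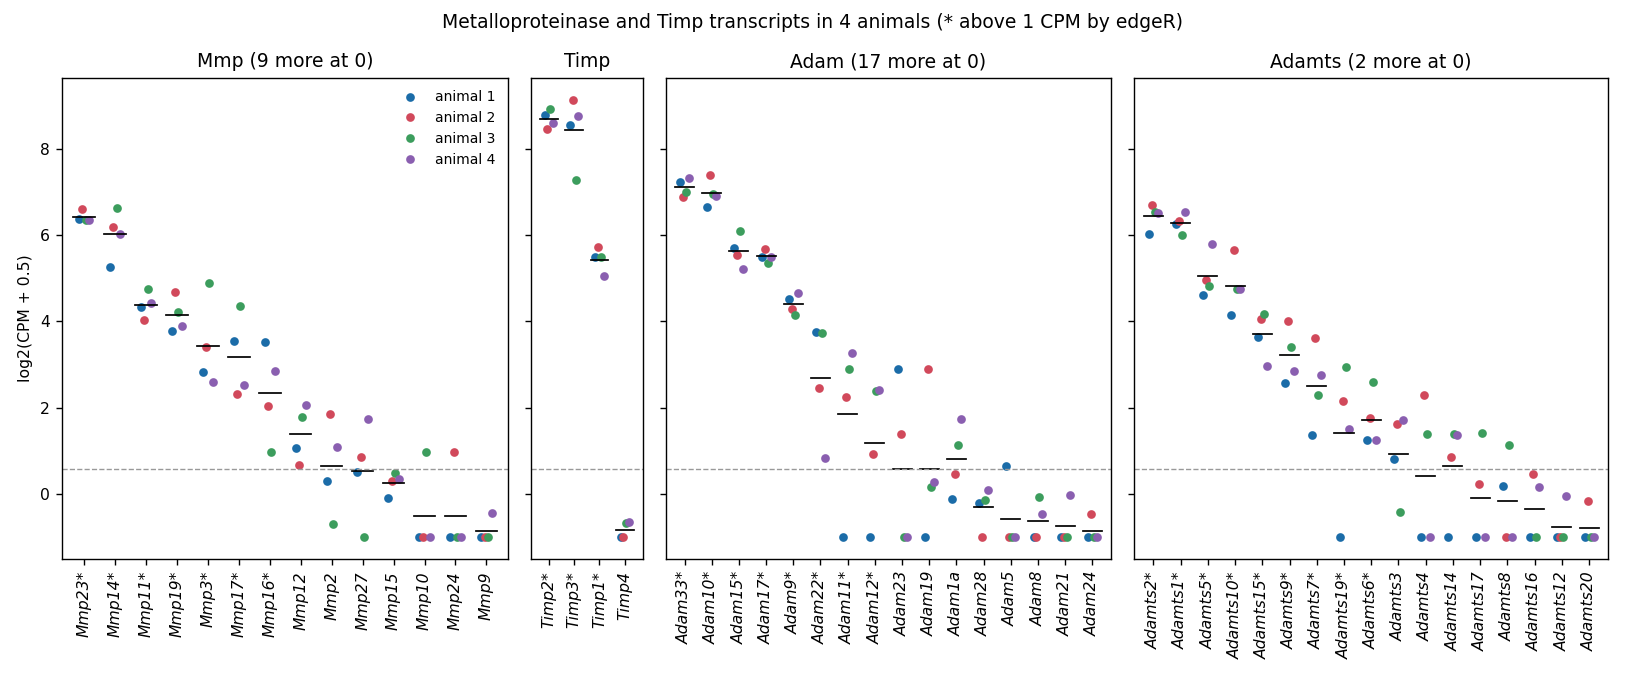
Level of each gene with reads, as log2(CPM + 0.5), in animals 1 to 4 (points) with the mean (bars), by family and in falling order of mean CPM; the dashed line is 1 CPM and an asterisk marks genes above it by edgeR. Timp2, Timp3, Adam33 and Adam10 averaged over 100 CPM, and 24 of the 51 genes shown were not above 1 CPM.

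Timp2, Timp3 and Timp1 were transcribed, and Timp4 was at or near 0. Timp2, a secreted inhibitor that also bridges Mmp14 and the pro-form of Mmp2 on the cell surface, had 444, 354, 489 and 389 CPM in animals 1 to 4. Timp3, which is held in the matrix by sulfated sugars, had 377, 564, 155 and 437 CPM. Timp1, a soluble inhibitor that acts weakly on membrane-type MMPs, had 44.7, 52.1, 44.3 and 32.5 CPM. Timp2 was high in every animal, while Timp3 was high in 3 animals and low in animal 3. Timp4, best known from heart and adipose tissue, was at 0 in animals 1 and 2 and had 0.121 and 0.135 CPM in animals 3 and 4. The first 3 lay above 1 CPM by edgeR (adjusted p = 5.73e-33 for Timp2, 3.4e-29 for Timp3 and 9.75e-22 for Timp1), and Timp4 did not (adjusted p = 1).

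Levels of different genes were compared per kilobase of the longest annotated transcript and within each animal. On that scale Timp2 averaged 113 ± 16.1, Timp3 81.2 ± 36.2 and Timp1 49.1 ± 9.17 CPM per kb (SD, n = 4). Timp1 was below Timp2 in 4 of 4 animals, with a mean log2 difference of -1.20 ± 0.36 (exact two-sided sign-flip permutation p = 0.125, the smallest that 4 animals can give). Timp2 exceeded Timp3 in 3 of 4 animals, by 0.61 ± 1.00 on the log2 scale (exact permutation p = 0.375), so that these neighbours in the order did not differ beyond their spread. For Timp1 minus Timp3 the log2 difference was -0.58 ± 0.85, with Timp1 higher in animal 3 alone (exact permutation p = 0.25). That order rested on the length used: Timp1 was below Timp3 in 4 of 4 animals with the median transcript length, by -1.77 ± 0.85, and with no division by length, by -3.00 ± 0.85. Without animal 3 the difference was -0.99 ± 0.33. Timp4 had 1.10 counts in all, and Timp3 was at least 2590-fold higher per kb than the 3 counts over the group that bound Timp4 (at least 1640-fold without animal 2).

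Timp1, Timp3 and Timp4 lie inside synapsin genes, on the opposite strand, and whether the libraries kept strand is not known here. Timp3 (chr10:86300372-86349506, plus strand, build GRCm38) shares 1733 exon bases with Syn3, which had 4.56 ± 3.68 CPM. Timp1 (chrX:20870166-20874735, plus strand) lies in Syn1, which was at 0 in all 4 animals. Timp4 (chr6:115241892-115252205, minus strand) lies in Syn2, which had 1.70 ± 1.60 CPM. Timp2 (chr11:118301069-118355740, minus strand) shares no exon with another gene.

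The RefSeq promoter sequences of the transcribed inhibitors, and of the membrane protease Mmp14, are shown because their base composition differs from that of the Mmp genes printed further on. Each is the 100 bases before the start that RefSeq gives on build GRCm38.p6, 5′ to 3′ on the strand of the gene, with every CG pair in capitals. The GENCODE gene extents of Timp2 and Timp3 given above begin further upstream. By those extents the Timp2 stretch lies wholly, and the Timp3 stretch partly, inside the gene.
Timp2, chr11:118355412-118355511, minus strand: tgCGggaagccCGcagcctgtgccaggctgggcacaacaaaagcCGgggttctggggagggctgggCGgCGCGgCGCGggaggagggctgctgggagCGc
Timp3, chr10:86300312-86300411, plus strand: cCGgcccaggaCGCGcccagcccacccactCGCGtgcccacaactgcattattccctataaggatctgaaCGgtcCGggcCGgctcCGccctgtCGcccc
Timp1, chrX:20870066-20870165, plus strand: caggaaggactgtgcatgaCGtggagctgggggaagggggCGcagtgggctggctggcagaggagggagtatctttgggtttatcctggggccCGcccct
Mmp14, chr14:54431498-54431597, plus strand: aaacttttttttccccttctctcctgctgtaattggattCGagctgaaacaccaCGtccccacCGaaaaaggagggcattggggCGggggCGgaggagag
These stretches hold 9 CG pairs for Timp2, 10 for Timp3, 3 for Timp1 and 5 for Mmp14. In the whole window of 300 bases, from 250 before to 50 after the start, Timp2 had 25 and Timp3 24 CG pairs, against 8 for Timp1 and 2 for Timp4.

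Summed over each family, the inhibitors stood above every protease family in every animal. The Timp sum was 250.3, 274, 215 and 234 CPM per kb in animals 1 to 4. The Mmp sum was 90.6, 114, 126 and 97.9 CPM per kb, and the Adam sum was 95.5, 101, 97.5 and 99.8 CPM per kb. The Adamts sum was the lowest, at 34.8, 55.6, 43.8 and 48.2 CPM per kb. The ratio of the Timp sum to the Mmp sum was 2.76, 2.40, 1.71 and 2.39, with a mean of 2.32 ± 0.44 (SD, n = 4), lowest in animal 3. Without division by length the mean ratio was 3.84 ± 0.96, a move of over 1.5 times. Set against all 3 protease families together, the Timp sum gave ratios of 1.13, 1.01, 0.805 and 0.953. These ratios are of RNA, count every family member alike and carry no test.

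**Figure D2:**
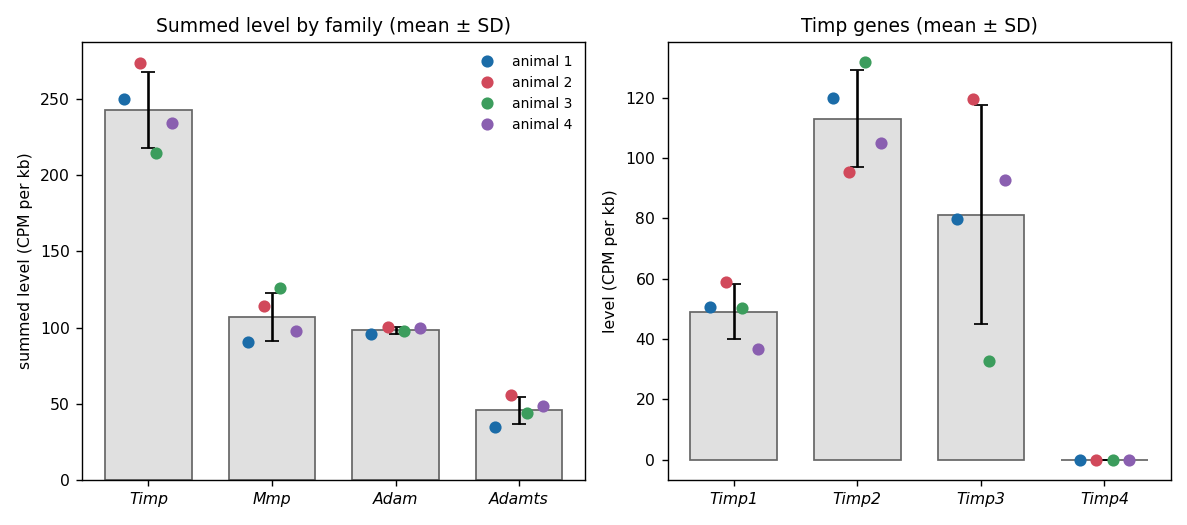
Left, summed level of each family in CPM per kb of transcript; right, level of each Timp gene on the same scale; bars are means over 4 animals, error bars SD and points single animals. The Timp sum lies at 215 CPM per kb or more in every animal and no Mmp sum exceeds 126 CPM per kb, while Timp3 in animal 3 lies far below the other animals.

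A pair of genes made up most of each family. Timp2 and Timp3 together held 79.8 ± 3.26% of the Timp sum per kb, Mmp14 and Mmp23 held 75.8 ± 4.24% of the Mmp sum, and Adam10 and Adam33 held 67.8 ± 2.82% of the Adam sum. Adamts1 and Adamts2 held 62.5 ± 6.95% of the Adamts sum. These pairs were named after their values were seen.

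Among the MMPs, Mmp23 and Mmp14 had the highest levels and the collagenases were at 0. Of 6 membrane-type MMPs 3 lay above 1 CPM (50%, beside 50.9% of protein-coding genes). Mmp14, the membrane-type enzyme that cuts collagen at the cell surface and activates Mmp2, had 37.6, 73.0, 99.3 and 64.3 CPM in animals 1 to 4 (chr14:54431612-54445364, plus strand). It was lowest in animal 1 and highest in animal 3. Mmp17, a lipid-anchored enzyme, had 11.1, 4.49, 19.9 and 5.28 CPM, and Mmp16, which resembles Mmp14 in structure, had 11.1, 3.61, 1.44 and 6.76 CPM. Mmp16 was lowest in animal 3, where Mmp14 and Mmp17 were highest. Per kb, Mmp14 was above Mmp16 by 4.31 ± 1.67 and above Mmp15 by 6.44 ± 0.35 on the log2 scale, each in 4 of 4 animals (exact permutation p = 0.125). Mmp15 had 0.436 to 0.899 CPM in the 4 animals, Mmp24 had reads in animal 2 alone, at 1.47 CPM, and Mmp25 was at 0.

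Neither gelatinase, the enzymes that cut denatured collagen and basement membrane, lay above 1 CPM. Mmp2, which is cleaved to its active form on the surface of cells that carry Mmp14, had 0.729, 3.11, 0.116 and 1.64 CPM in animals 1 to 4 (adjusted p = 0.863 by edgeR). Mmp9, the gelatinase of neutrophils and macrophages, had 0.235 CPM in animal 4 and 0 in the others. Mmp2 thus varied widely around 1 CPM and was lowest in animal 3. Its partners were far more abundant in RNA: per kb, Mmp14 exceeded Mmp2 by 5.32 ± 1.33 and Timp2 exceeded Mmp2 by 7.80 ± 1.30 on the log2 scale, each in 4 of 4 animals (exact permutation p = 0.125). Timp2 also exceeded Mmp14, by 2.48 ± 0.60, in 4 of 4 animals (exact permutation p = 0.125). Mmp9 held 0.96 counts in all. Per kb of the longest transcript, Timp1, which binds the pro-form of Mmp9, was at least 919-fold above the 3 counts over the group that bound Mmp9. That bound depends on the length used. Timp1 minus Mmp9 was 8.14 on the log2 scale, against 6.30 with no division by length and 6.18 with the median transcript length.

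Mmp23, a membrane enzyme that is shed during secretion and lacks the hemopexin domain of most MMPs, had 82.9, 97.0, 81.6 and 80.9 CPM in animals 1 to 4 (chr4:155650655-155653384, minus strand). At 59.7 ± 5.32 CPM per kb it was the highest Mmp gene by mean level, and of the Mmp genes above 1 CPM it varied least between animals. The other Mmp gene of the remaining class above 1 CPM was Mmp19, a secreted enzyme that cuts basement membrane proteins, with 13.3, 25.0, 18.1 and 14.3 CPM. Mmp19 shares 789 exon bases with Tmem198b on the opposite strand, which had 49.1 CPM, so part of its level may be uncertain. Mmp20, the enzyme of tooth enamel, Mmp21 and Mmp28 were at 0 in every animal, and Mmp27 had 1.27 ± 1.19 CPM without passing the test.

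Of the stromelysins and their relatives, 2 of 3 lay above 1 CPM (66.7%, beside 50.9% of protein-coding genes). Mmp11, which unlike most secreted MMPs is activated by furin inside the cell, had 19.7, 15.9, 26.5 and 20.9 CPM. Mmp3, stromelysin 1, cuts proteoglycans and other MMPs, and had 6.58, 10.1, 29.0 and 5.50 CPM. Mmp11 differed little between animals, while Mmp3 was far higher in animal 3 than in the other animals. Mmp10, the close relative of Mmp3, had 1.47 CPM in animal 3 and 0 in the others. Per kb Mmp3 exceeded Mmp10 by 3.86 ± 0.34 on the log2 scale in 4 of 4 animals (exact permutation p = 0.125).

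Mmp3 stands in a cluster of 10 Mmp genes that spans 427 kb of chromosome 9 (chr9:7272514-7699585). It was the 1 gene of the 10 that passed the edgeR test of a level above 1 CPM, and 6 were at 0 in every animal. The collagenases of the cluster, which cut intact fibrillar collagen, are Mmp1a, Mmp1b, Mmp8 and Mmp13, and all 4 were at 0. Mmp7, the epithelial matrilysin, and Mmp20 were also at 0. Mmp12, the macrophage elastase, had 1.61, 1.09, 2.95 and 3.68 CPM and missed the threshold (adjusted p = 0.0693 by edgeR). It passed with DESeq2 (adjusted p = 0.0327), with only genes of at least 10 counts tested (adjusted p = 0.0192) and without animal 2 (adjusted p = 0.0417). Among macrophage markers Adgre1 had 0.055 CPM and Csf1r 34.5 ± 5.22 CPM beside it, and their part was not tested.

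**Figure D3:**
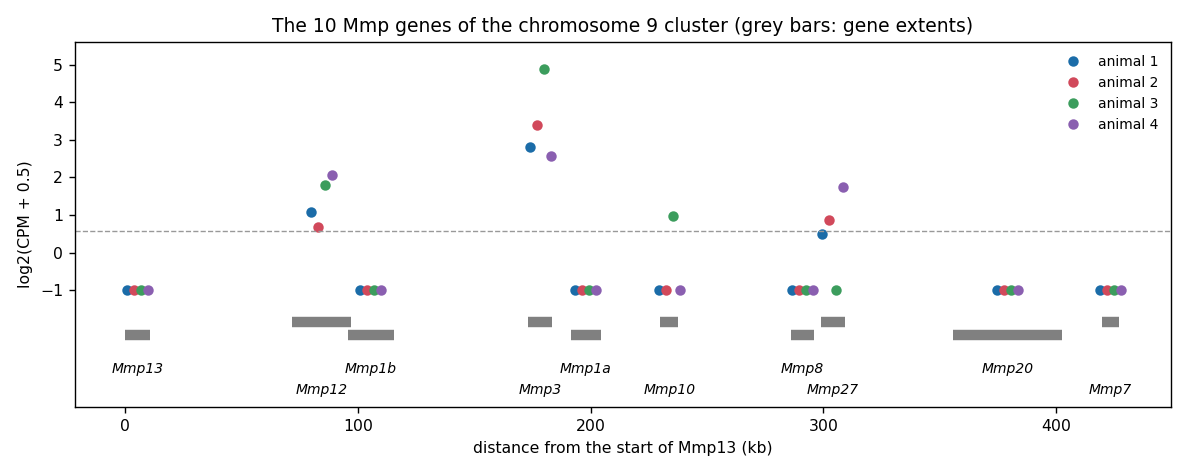
Level of the 10 Mmp genes of the chromosome 9 cluster as log2(CPM + 0.5) in animals 1 to 4 (points), placed by distance from the start of Mmp13 in kb; grey bars are gene extents and the dashed line is 1 CPM. Mmp3 and Mmp12 are above the line in all 4 animals, though Mmp12 did not pass the edgeR test. Mmp13, Mmp1b, Mmp1a, Mmp8, Mmp20 and Mmp7 lie at 0 in all 4.

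Promoters of the cluster share short motifs, and they are shown to set Mmp3 beside neighbours that did not pass the edgeR test. Of the neighbours printed, Mmp12 averaged 2.33 CPM and the others were at or near 0. Each is the 100 bases before a RefSeq start, 5′ to 3′ on the strand of the gene, build GRCm38.p6. Capitals mark TGANTCA, the letters known to be read by AP-1 factors, which are the same on both strands, and TATAAA, the TATA box, on the strand of the gene. Where RefSeq gives 2 starts for Mmp12, the second is shown.
Mmp3, chr9:7445722-7445821, plus strand: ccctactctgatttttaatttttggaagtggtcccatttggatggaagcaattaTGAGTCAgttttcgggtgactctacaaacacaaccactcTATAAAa
Mmp10, chr9:7502242-7502341, plus strand: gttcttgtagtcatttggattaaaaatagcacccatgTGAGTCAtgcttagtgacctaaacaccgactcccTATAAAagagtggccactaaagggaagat
Mmp12, chr9:7347274-7347373, plus strand: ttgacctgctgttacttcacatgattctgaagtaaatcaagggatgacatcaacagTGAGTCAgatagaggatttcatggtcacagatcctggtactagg
Mmp13, chr9:7272414-7272513, plus strand: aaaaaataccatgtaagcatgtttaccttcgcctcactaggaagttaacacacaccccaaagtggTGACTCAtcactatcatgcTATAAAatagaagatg
Mmp1a, chr9:7464041-7464140, plus strand: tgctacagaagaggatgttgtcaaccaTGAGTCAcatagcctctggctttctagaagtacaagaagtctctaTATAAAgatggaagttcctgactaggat
Mmp7, chr9:7691990-7692089, plus strand: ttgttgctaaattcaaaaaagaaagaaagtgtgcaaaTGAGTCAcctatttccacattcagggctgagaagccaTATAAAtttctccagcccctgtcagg
Counted back from the start, TGANTCA began at -46 in Mmp3, -63 in Mmp10, -44 in Mmp12, -35 in Mmp13, -73 in Mmp1a and -63 in Mmp7. TATAAA began at -7 in Mmp3, -29 in Mmp10, -16 in Mmp13 and -28 in Mmp1a, and in Mmp12 it lay after the printed stretch. Between the 2 motifs stood 32 bases in Mmp3, 27 in Mmp10, 12 in Mmp13, 38 in Mmp1a and 30 in Mmp7.

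Both motifs, with TATAAA on the strand of the gene, were in the window of 8 of the 10 cluster genes, the exceptions being Mmp8 and Mmp27. They were together in 1 of the 39 other genes of these families that have a RefSeq window, and in 0.995% of all 32851 mouse windows of the same length. The motifs do not overlap each other. TGANTCA alone was in 13 of the 49 genes with a window (26.5%), beside 7.81% of all windows, and TATAAA on either strand was in 14 of 49 (28.6%), beside 13.6%. A gene counts here if any of its windows matches, while the shares of all windows take each window singly. Counted by gene, TGANTCA was in 5.97% of genes of the table above 1 CPM and 10.3% of those not above. Both motifs were together in 0.36% and 1.85% of these genes. The letters did not part the gene that passed the test from genes at 0, since Mmp3 and 5 genes of the cluster at 0 hold both. A match describes the sequence and does not show that a factor was bound.

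Of the 9 proteolytic ADAMs known from somatic tissues, 6 lay above 1 CPM (66.7%, beside 50.9% of protein-coding genes). Adam33, a membrane protease of smooth muscle and mesenchyme, had 149.8, 119, 128 and 159.6 CPM in animals 1 to 4 (chr2:131050591-131063814, minus strand). Adam10, the sheddase of Notch receptors and cadherins, had 100.4, 167, 124 and 119 CPM (chr9:70678997-70780229, plus strand). Adam17, the enzyme that releases TNF and EGF receptor ligands, had 44.8, 50.8, 40.6 and 44.9 CPM (chr12:21323509-21373632, minus strand). All 4 animals lay close together for Adam33 and Adam17, and animal 2 was highest for Adam10 and Adam17. Per kb, Adam10 exceeded Adam17 by 1.43 ± 0.24 on the log2 scale in 4 of 4 animals (exact permutation p = 0.125). Adam17 shares 311 exon bases with Iah1 on the opposite strand, which had 74.3 CPM. Timp3, the inhibitor of Adam17, exceeded it per kb by 2.85 ± 0.69 on the log2 scale, in 4 of 4 animals and least in animal 3 (exact permutation p = 0.125).

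Adam15 had 51.2, 45.7, 67.9 and 36.5 CPM, and Adam9 had 22.5, 19.0, 17.4 and 24.9 CPM. Both encode membrane proteases with an integrin-binding disintegrin domain. Per kb Adam9 was below Adam15 in 4 of 4 animals, with a log2 difference of -1.27 ± 0.57 (exact permutation p = 0.125). Adam12, the meltrin of muscle and developing mesenchyme, had 0, 1.41, 4.72 and 4.77 CPM. It passed narrowly (adjusted p = 0.0396 by edgeR) and did not pass with DESeq2 (adjusted p = 0.0557), with counts rounded down (0.0747), or without animal 3 (0.361) or animal 4 (0.420). Adam19, a related meltrin, had 6.92 CPM in animal 2 and 0, 0.610 and 0.703 CPM in animals 1, 3 and 4, and did not pass (adjusted p = 0.292 by edgeR). Adam12 and Adam19 differed by less than their spread, with a log2 difference per kb of 0.34 ± 1.99 and Adam12 higher in animals 3 and 4 (exact permutation p = 1). Both were at 0 in animal 1. Adam8 and Adam28, known from leukocytes, had means of 0.168 and 0.334 CPM.

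Genes known to work with these sheddases were measured beside them. All 3 partners that carry Adam17 to the cell surface lay above 1 CPM, the iRhom genes Rhbdf1 (37.2 ± 6.28 CPM) and Rhbdf2 (7.85 ± 4.09 CPM) and Frmd8 (20.0 ± 4.97 CPM). Of the 6 TspanC8 tetraspanins that guide Adam10, 5 lay above 1 CPM. Tspan15 had 45.5, 69.9, 22.8 and 54.2 CPM and Tspan5 had 29.2, 31.1, 28.5 and 39.3 CPM, while Tspan10 was at 0. Tspan15 was lowest in animal 3 and Tspan5 was alike in all animals. Of 15 known substrates 8 lay above 1 CPM (53.3%, beside 50.9% of protein-coding genes), among them Notch2 at 424 ± 107 CPM, Tnfrsf1a at 178 ± 26.0 CPM and Cxcl16 at 92.9 ± 31.9 CPM. Tnf itself, the substrate that gave Adam17 its name, was at 0 in every animal.

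ADAMs outside this class were low or at 0. Adam22, an inactive ADAM that serves as the neuronal receptor of Lgi1, had 13.1, 4.99, 12.8 and 1.29 CPM, and Adam11, another inactive ADAM of nervous tissue, had 0, 4.26, 6.95 and 9.11 CPM. Both passed the test, though Adam22 was 10.2-fold higher in animal 1 than in animal 4 and Adam11 was at 0 in animal 1. Adam23 had reads in animals 1 and 2 alone, at 6.89 and 2.13 CPM, and did not pass (adjusted p = 0.240 by edgeR). Of 21 ADAMs known from testis and epididymis none lay above 1 CPM by edgeR, none had an unadjusted p under 0.05, none passed with DESeq2, and 17 were at 0. The highest of them, Adam1a, had 1.46 ± 1.06 CPM, but it shares exons with Mapkapk5 on the same strand and a nearly identical stretch with Adam1b, so its reads are uncertain. With this list left aside, 27 of the other 58 genes lay above 1 CPM (46.6%), beside 50.9% of protein-coding genes.

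Of 19 ADAMTS genes 9 lay above 1 CPM (47.4%, beside 50.9% of protein-coding genes), against 8 of the 12 ADAM genes outside the testis and epididymis list (66.7%). Adamts2 and Adamts1 had the highest levels. Adamts2 removes the N-terminal propeptide of fibrillar procollagens and had 64.8, 103, 92.6 and 91.0 CPM in animals 1 to 4 (chr11:50602084-50807573, plus strand). It was lowest in animal 1 and alike in the others. Its relatives Adamts3 and Adamts14 had 1.71 ± 1.20 and 1.38 ± 0.99 CPM and did not pass the test. Per kb Adamts2 exceeded Adamts3 by 4.63 ± 0.98 and Adamts14 by 5.31 ± 0.89 on the log2 scale, each in 4 of 4 animals (exact permutation p = 0.125). Of the 8 fibrillar procollagen genes 6 lay above 1 CPM, with Col3a1 at 2741 ± 917 CPM, and the C-terminal proteinase Bmp1 and its enhancer Pcolce had 58.3 ± 24.2 and 950 ± 168 CPM.

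Of the hyalectanases, which cut versican and aggrecan, 4 of 7 lay above 1 CPM (57.1%, beside 50.9% of protein-coding genes). Adamts1 had 76.7, 79.7, 64.1 and 92.1 CPM (chr16:85793827-85803113, minus strand). Its neighbour on the chromosome, Adamts5, had 23.8, 30.5, 27.8 and 55.2 CPM (chr16:85856173-85901828, minus strand). Adamts15 had 12.0, 16.1, 17.7 and 7.26 CPM, and Adamts9 had 5.45, 15.7, 10.2 and 6.75 CPM. Adamts1 and Adamts5 were both highest in animal 4, where Adamts15 was lowest. Adamts4 had reads in animals 2 and 3 alone, at 4.41 and 2.12 CPM, and did not pass. Per kb, Adamts1 exceeded Adamts5 by 2.38 ± 0.39, Adamts9 by 3.78 ± 0.72 and Adamts4 by 5.71 ± 1.79 on the log2 scale. Adamts5 exceeded Adamts4 by 3.33 ± 1.91, and all 4 of these differences held in 4 of 4 animals (exact permutation p = 0.125 each). Of their 4 substrates Vcan alone lay above 1 CPM, with 3.04, 16.4, 20.7 and 5.64 CPM, and Acan and Bcan were at 0.

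The promoter of Adamts1 is shown because, of the 10 ADAMTS genes with a RefSeq window, it is the 1 with TATAAA, here in capitals (100 bases before the start, build GRCm38.p6).
Adamts1, chr16:85803114-85803213, minus strand: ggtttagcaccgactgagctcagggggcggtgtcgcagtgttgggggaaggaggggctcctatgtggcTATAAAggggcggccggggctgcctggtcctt
TATAAA began at -32, the window of 300 bases held 18 CG pairs, and it held no TGANTCA.

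Among the other ADAMTS genes 4 of 9 lay above 1 CPM (44.4%, beside 50.9% of protein-coding genes). Adamts10, which binds fibrillin, had 17.1, 49.6, 26.3 and 26.6 CPM, and Adamts6, its closest relative, had 1.89, 2.86, 5.50 and 1.89 CPM. Per kb Adamts10 exceeded Adamts6 by 4.01 ± 0.76 on the log2 scale in 4 of 4 animals (exact permutation p = 0.125). Adamts7, which cuts the cartilage matrix protein Comp, had 2.08, 11.7, 4.44 and 6.28 CPM. Adamts10 and Adamts7 were both highest in animal 2 and lowest in animal 1. Adamts19, known from heart valves, had 0, 3.94, 7.16 and 2.35 CPM. Adamts6 and Adamts19 passed (adjusted p = 0.00325 and 0.00674 by edgeR) but did not pass without animal 3 (adjusted p = 0.111 and 0.321). Adamts13, the protease of von Willebrand factor made in liver, and Adamts18 were at 0 in every animal.

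Over all pairs, 28 comparisons within these families were listed and 27 were made, since Mmp13 and Mmp8 were both at 0. In 2 of the 27, Adam12 with Adam19 and Adamts16 with Adamts18, both genes were at 0 in an animal, and the sign there is set by transcript length alone. Of the other 25 pairs, 23 had the same sign in all 4 animals. The exact permutation p was then 0.125, or 0.141 after Benjamini-Hochberg adjustment over the 27 pairs, and no pair could pass 0.05 with 4 animals. Where a gene was at 0 in an animal, the size of the difference there is set by the 0.5 CPM added to each level. In 6 pairs the second gene had under 3 counts in all, and the fold is a lower bound for levels per kb of the longest transcript alone. It was at least 1200-fold for Mmp23 over Mmp28, at least 56.7-fold for Adamts7 over Adamts12 (29.4-fold without animal 2) and at least 8.30-fold for Mmp2 over Mmp9 (3.63-fold without animal 2). Adamts16 over Adamts18 has no bound without animal 2, where most of the Adamts16 counts lie.

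The size of a difference depended on the length by which a level was divided. Of the 25 pairs, 16 moved by over 1.5-fold with the median transcript length and 13 with no division by length. With the median length Timp2 minus Mmp14 was 1.17, Timp2 minus Mmp2 6.93, Timp3 minus Adam17 3.50 and Adam10 minus Adam17 2.23 on the log2 scale. Adam9 minus Adam15 was -3.11, and Adam9 minus Adam12 was 1.35, against 4.15 with the longest transcript, and held in 3 of 4 animals. Mmp14 minus Mmp15 was 7.61, Mmp14 minus Mmp16 5.15, Adamts2 minus Adamts3 6.84 and Adamts2 minus Adamts14 7.73, while Adamts1 minus Adamts5 was 3.45 and 1.24 with no division. With no division by length Mmp23 minus Mmp28 was 7.42, against 8.69, and Adamts7 minus Adamts12 was 3.27, against 3.94. With 0.1 in place of 0.5 CPM added, Mmp3 minus Mmp10 was 5.62 ± 1.05. Leaving out an animal moved 5 pairs by over 1.5-fold: Mmp14 minus Mmp16 was 4.96 without animal 1 and 3.64 without animal 3, and Mmp14 minus Mmp2 was 4.67 without animal 3. Adam9 minus Adam12 was 3.39 without animal 1, Adamts1 minus Adamts4 was 6.32 without animal 2, and Adamts5 minus Adamts4 was 3.98 without animal 2 and 2.60 without animal 4.

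**Figure D4:**
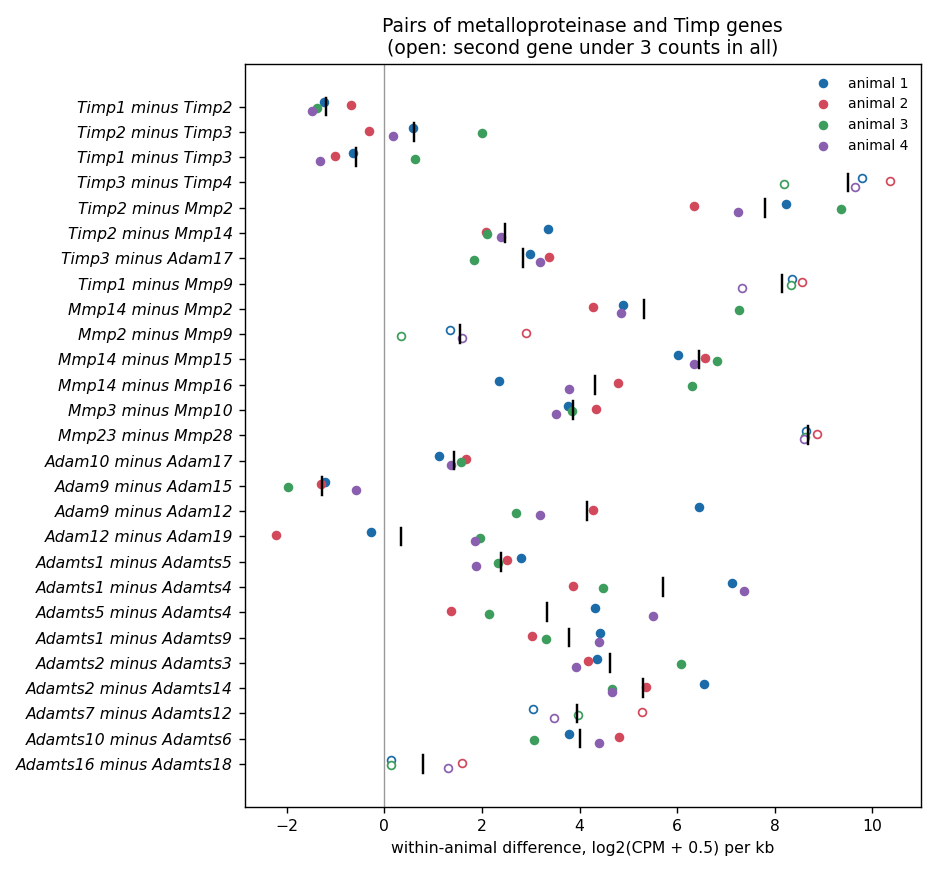
Difference of log2(CPM + 0.5) per kb between the first and second gene of each pair within animals 1 to 4 (points) with the mean (bars); open points mark pairs whose second gene has under 3 counts in all. Timp2 minus Timp3, Timp1 minus Timp3 and Adam12 minus Adam19 cross 0, and Adamts16 minus Adamts18 in animals 1 and 3 shows transcript length alone, since both genes were at 0 there.

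The animals differed more in some of these genes than in genes of like level. For the 36 genes with a mean of at least 1 CPM, the SD over animals of log2(CPM + 0.5) was set beside the median over all genes of like level, taken in 10 bins of mean CPM, and 24 of 36 were above it. Timp3 had an SD of 0.81, beside a median of 0.21, which placed it at the 96.9th percentile of its bin, and its highest animal was 3.64-fold above its lowest. Mmp3 stood at the 95.4th percentile (SD 1.03), Adam22 at the 96.7th (1.38), Adam11 at the 97.8th (1.95) and Mmp14 at the 92.8th (0.58). The steadiest were Adam17 at the 9.26th percentile (SD 0.13) and Mmp23 at the 13.8th (0.12). No test was made of these spreads. Animal 3 had the lowest Timp3, Mmp2, Mmp16, Adam9, Adam17 and Adamts1, among others. It also had the highest Timp2, Mmp14, Mmp3, Mmp17, Mmp11 and Adam15, among others. In the same animal the mesothelial markers summed to 17078 CPM, beside 17482 to 19127 CPM in the others. Msln, Upk1b, Krt7 and the sort marker Gpm6a were at their lowest there, and Bnc1 and Krt8 at their highest. The fibroblast sum there was 19829 CPM, beside 14828 to 22467 CPM in the others. Lum was at its lowest there, and Col1a1, Col1a2 and Pi16 were at their highest. Their part in these levels was not tested.

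**Figure D5:**
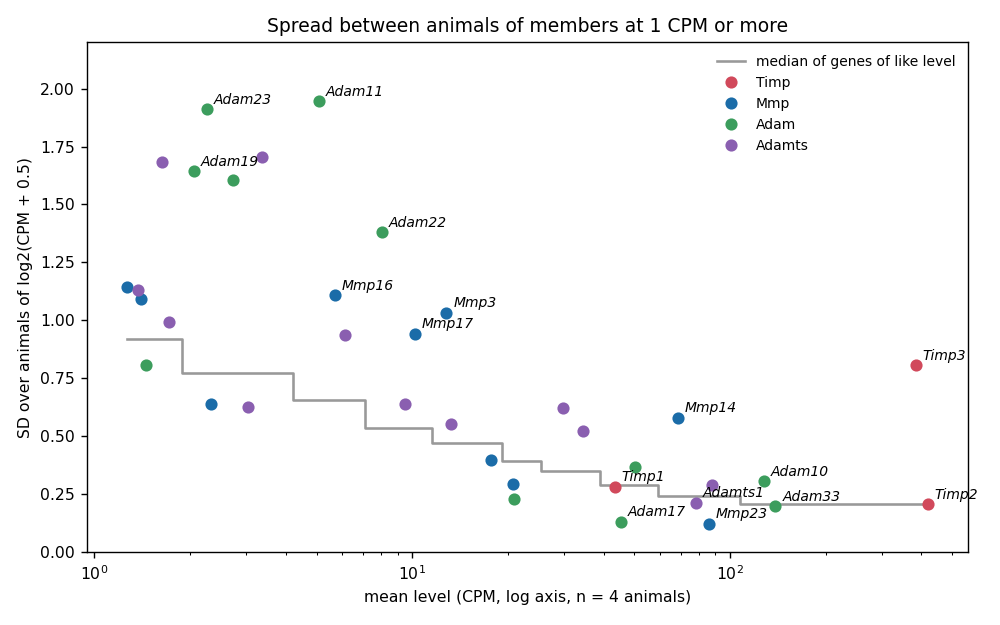
SD over 4 animals of log2(CPM + 0.5) against the mean CPM (log axis) of each gene with a mean of at least 1 CPM, coloured by family; the grey steps are the median SD of all genes in 10 bins of level. Timp3 lies at 0.81 where the median is 0.21, and Mmp23 and Adam17 lie below the steps.

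The promoter windows of genes above 1 CPM more often held many CG pairs, as they did over the whole table. A RefSeq window was found for 49 of the 79 genes and for 14 of the 27 above 1 CPM. Of these 14 genes, 11 had at least 15 CG pairs in 300 bases (78.6%), against 10 of the 35 genes not above 1 CPM (28.6%). Over all genes of the table the shares were 76.3% of those above 1 CPM and 22.3% of those not above, so that the metalloproteinase genes showed about the same shares as other genes. Within the cluster on chromosome 9 no gene had 15 CG pairs, Mmp3 included, and the median was 1.5.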

How the data were processed

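The deposited table holds estimated counts per gene, 1 column per animal, for 48425 gene symbols; the unit was read from the values, since 99.75% or more of the nonzero values in each library were not whole. Per the submitters' processing notes, kallisto 0.43.1, edgeR 3.24.3, limma 3.38.3 and build GRCm38.p5 were used, and the role of each, the strand setting and the step from transcripts to genes are not given in the sources used here. Estimated counts depend on how reads were split between similar transcripts and on transcript length.

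CPM is a column value over the column sum. For tests the estimated counts were rounded to whole numbers. No group contrast exists, so each gene's level was tested against 1 CPM by edgeR 4.0.16 (R 4.3.3) with an intercept, a quasi-likelihood F test, one-sided, and Benjamini-Hochberg adjustment over 48425 genes at a threshold of 0.05. Alternatives were TMM and RLE scaling, DESeq2 1.42.0, a minimum of 10 counts, rounding down and leaving out each animal. Gene pairs were compared on log2(CPM + 0.5) minus log2 of the longest GENCODE transcript in kb, by exact permutation (all sign flips over the 4 animals, two-sided). The common biological coefficient of variation was 42.3%, and libraries differed pairwise by 10.7 to 26.2 chi-square units per gene, so each counted as a replicate. A floor of 3 counts speaks to counting error alone, because PCR copies were not told apart.

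Values in every animal are given for the genes past the level test that rank among the 8 highest of their family, for all Timp genes and for genes of the pairs described. The genes and lists were chosen with earlier results of these data known. The promoter windows were chosen after the levels were seen. Protein sequence features, which were planned, are not analysed here. Gene positions are from GENCODE on GRCm38, promoter sequences from RefSeq on GRCm38.p6 with starts that can differ from GENCODE's, in scans of TGANTCA and TATAAA by Python 3.11.15.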

Additional observations from a re-analysis of the deposited data

Results flagged for a closer look

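Of 39 values screened over the 4 animals, 3 had 1 animal far from the others, by Dixon's ratio of the gap to the range at its 95% critical value. Chance alone marks about 1 in 20 such values. Adam19 had 6.92 CPM in animal 2, against 0 to 0.703 CPM in the other 3. Mmp23 had 97.0 CPM in animal 2, against 80.9 to 82.9 CPM in the others. The ratio of the Timp sum to the Adamts sum per kb was 7.19 in animal 1, against 4.86 to 4.93 in the others, and the Adamts sum itself was lowest in animal 1, at 34.8 CPM per kb.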

How the results depend on the processing

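The count of genes above 1 CPM was 27, and 24 to 28 under the alternatives: 27 with TMM, RLE and DESeq2, 28 with a minimum of 10 counts and 26 with counts rounded down. Leaving out 1 animal gave 24 to 28, with 24 without animal 3. Of the 27, DESeq2 shared 26. Calls were lost for Adam12, Adamts19 and Adamts6 and gained for Mmp12, as given above, and no other gene of these families changed its call. The mean ratio of the Timp sum to the Mmp sum, 2.32, was 3.84 with no division by length, 1.84 with the median transcript length, 2.31 with the longest protein-coding transcript (added after the data were seen) and 2.17 to 2.52 with 1 animal left out. The mean differences of all 27 pairs kept their sign with either pseudocount and with each length setting, but of 25 pairs 16 moved by over 1.5-fold with the median length, 13 with no division by length, 13 with 0.1 CPM added, 6 with 1 CPM added and 1 or 2 with an animal left out. Adam12 minus Adam19 reversed, to -0.21 without animal 3 and -0.17 without animal 4, and was 1.19 without animal 2. No paired analysis was possible because the series has 1 group. Genes near 1 CPM rest on few counts at this depth, and calls on them are the ones that changed. The cause of each change was not tested.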

Other observations

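Of 9 genes listed for the activation of MMPs and ADAMs, 7 lay above 1 CPM by edgeR (77.8%, beside 50.9% of protein-coding genes). The list holds proteases and Plaur, a receptor and not a protease, which is counted among the 7. All 4 proprotein convertases listed, which remove the propeptides of ADAMs and membrane-type MMPs, lay above 1 CPM. Furin had 49.6 ± 8.60 CPM, Pcsk6 43.9 ± 7.21, Pcsk5 23.9 ± 5.85 and Pcsk7 14.3 ± 5.71 CPM (SD, n = 4). Of the plasmin system, the activator Plat had 135 ± 35.1 CPM and the receptor Plaur 184 ± 49.6 CPM, against 3.03 ± 0.74 CPM for the activator Plau. Plg, the gene of plasminogen, which is made in liver, was at 0 in every animal.

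Of 8 inhibitors outside the TIMP family 5 lay above 1 CPM (62.5%, beside 50.9% of protein-coding genes). The highest were Slpi, an inhibitor of serine proteases, at 9789 ± 3278 CPM and Cst3, the cysteine protease inhibitor cystatin C, at 1081 ± 181 CPM. Reck, a membrane-anchored inhibitor of MMPs and of Adam10, had 13.1, 14.1, 18.7 and 30.9 CPM in animals 1 to 4 and was highest in animal 4. The broad inhibitors A2m and Pzp had 0.110 CPM and 0. Of 6 ADAMTS-like genes, which resemble ADAMTS enzymes but lack the protease domain, 5 lay above 1 CPM (83.3%). Adamtsl1 had 143, 163, 133 and 107 CPM, a mean of 137 ± 23.2 CPM, and Adamtsl2 was at 0 in every animal.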
